A study of Mus musculus with 4 samples.

Results

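Spleen cells were examined that carried neutrophil transcripts with an intermediate load of secondary granule messages, the composition given to neutrophils in transit between the granule-building and the segmented stage. A cell was a member when Camp, Ngp and Ltf together made up at least 0.5% and under 3% of its unique molecular identifiers (UMIs, counted RNA molecules), S100a8 and S100a9 together at least 1%, and Elane, Mpo and Prtn3 together under 0.5%. At least 2 of Csf3r, Cxcr2, Retnlg, Mmp8 and Mmp9 also had to be detected. A barcode entered the data set from 500 UMIs and 250 detected genes upward unless mitochondrial transcripts passed 10% of its UMIs, and 1637 of the 53945 cells kept in this way were members. The members were chosen by these measured values, so the levels of the rule's 13 genes, and every difference between cells inside and outside the window, are descriptions without a test.

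The cells came from spleens of 4 female C57BL/6J mice, profiled by droplet single-cell RNA sequencing with 1 library per mouse. The 2 D3TA mice were heterozygous for a constitutive knock-in, made with CRISPR/Cas9 and present in all tissues, that puts alanine in place of threonine 283 of cyclin D3, the product of Ccnd3. The 2 WT mice carried no edited allele. Ages were 12 and 16 months, when mutant animals have a myeloproliferative neoplasm, an excess of blood cells of the myeloid lineages. The labels do not say which library came from which age, and the mutation acts in every cell type, not in neutrophils alone. Red cells were lysed before loading.

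Neutrophils fill their granules in sequence as they differentiate. Promyelocytes make the proteases of azurophil granules, myelocytes the antimicrobial proteins of specific granules, such as lactoferrin and cathelicidin, and later band cells the proteases of gelatinase granules, while receptors for colony-stimulating factor, chemokines and formyl peptides come last and division stops. The factor C/EBPε is known to drive specific granule genes, and the spleen of mice can host this maturation when myeloid output is high. The pair S100a8 and S100a9 encodes calprotectin, the main cytosolic protein of neutrophils throughout these steps.

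The promoters of the 3 granule genes that set the window and of Retnlg, a resistin-like protein gene of later neutrophils, are shown because the members were chosen by the balance of these transcripts. Each window runs from 250 bases before to 50 bases after the RefSeq start site, on GRCm38.p6 and on the gene's strand, and capitals mark matches to a C/EBP-type motif, TTNNGNAA or TTNCNNAA on either strand. The windows are chr9:111019042-111019341 on the plus strand for Ltf (lactoferrin), chr9:109849407-109849706 on the minus strand for Camp (cathelicidin), chr9:110419558-110419857 on the plus strand for Ngp (neutrophilic granule protein) and chr16:48872358-48872657 on the plus strand for Retnlg.
Ltf: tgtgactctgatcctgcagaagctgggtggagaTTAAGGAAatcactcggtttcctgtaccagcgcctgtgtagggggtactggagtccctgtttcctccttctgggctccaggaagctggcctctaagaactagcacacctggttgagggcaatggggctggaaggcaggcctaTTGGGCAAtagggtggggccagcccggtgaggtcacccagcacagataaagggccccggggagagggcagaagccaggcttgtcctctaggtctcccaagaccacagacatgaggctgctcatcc
Camp: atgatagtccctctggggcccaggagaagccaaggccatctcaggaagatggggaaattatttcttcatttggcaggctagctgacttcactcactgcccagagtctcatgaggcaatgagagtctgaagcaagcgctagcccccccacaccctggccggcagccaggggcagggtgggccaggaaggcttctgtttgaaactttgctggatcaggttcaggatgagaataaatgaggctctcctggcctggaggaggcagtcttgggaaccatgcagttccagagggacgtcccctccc
Ngp: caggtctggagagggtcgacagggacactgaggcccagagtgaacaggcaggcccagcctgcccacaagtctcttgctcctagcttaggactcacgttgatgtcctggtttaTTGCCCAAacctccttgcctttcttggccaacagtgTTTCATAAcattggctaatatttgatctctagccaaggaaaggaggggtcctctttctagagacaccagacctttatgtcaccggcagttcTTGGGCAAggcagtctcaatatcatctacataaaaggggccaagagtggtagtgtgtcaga
Retnlg: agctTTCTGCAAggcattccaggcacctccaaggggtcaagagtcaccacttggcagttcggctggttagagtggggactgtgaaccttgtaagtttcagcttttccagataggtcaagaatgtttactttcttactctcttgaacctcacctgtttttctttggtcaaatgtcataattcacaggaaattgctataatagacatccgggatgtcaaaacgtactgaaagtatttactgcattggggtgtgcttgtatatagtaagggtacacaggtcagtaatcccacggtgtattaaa
The Ltf window held 2 matches, starting 217 and 75 bases before the start site, the Ngp window held 3, at 138, 102 and 11 bases before it, and the Retnlg window 1, at 246 bases before it. The Camp window held none. Matches were also found for Mmp8 (2) and Lcn2 (1), and 0 for Csf3r and Cxcr2, whose windows are not printed. The motif is loose: 13365 of 32851 mouse promoter windows (40.7%) held at least 1 match, 13.6% at least 2 and 3.6% at least 3. A PU.1-type motif, GAGGAA or TTCCTC, was in 28.3% of windows, with 2 matches for Cxcr2, 1 each for Ltf, Lcn2, Mmp8 and Csf3r, and none for Camp, Ngp and Retnlg. These are matches of letters, and binding was not measured. Mmp9 was also looked up. In the GENCODE annotation of GRCm38, the 4 marker genes of the label are Mmp8 (ENSMUSG00000005800, chr9:7558456-7568485, plus strand), Lcn2 (ENSMUSG00000026822, chr2:32384633-32388252, minus strand), Retnlg (ENSMUSG00000022651, chr16:48872621-48874496, plus strand) and Csf3r (ENSMUSG00000028859, chr4:126024550-126044440, plus strand).

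The libraries held 12500 and 10950 kept cells in D3TA replicates 1 and 2, against 22619 and 7876 in WT replicates 1 and 2. Their median depth was 8111 and 7698 UMIs in D3TA and 1394 and 8009 UMIs in WT, so WT replicate 1 stood apart as shallow. Between pairs of libraries 32 to 127 barcode sequences recurred, and 19 members carried one of them, but no barcode was a member in both libraries of a pair. All p-values below measure the spread between 4 mice, and 2 against 2 cannot give less than 0.333 in an exact permutation test.

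Members were common in both D3TA spleens and nearly absent from both WT spleens. They made up 8.53% of kept cells in D3TA replicate 1 (1066 cells, 95% exact binomial interval 8.04 to 9.03) and 5.19% in D3TA replicate 2 (568 cells, 4.78 to 5.62). In WT replicate 1 the share was 0.00442% (1 cell, 0.000112 to 0.0246), and in WT replicate 2 it was 0.0254% (2 cells, 0.00308 to 0.0917). Every D3TA library lay above every WT library, and intervals here cover counting error only.

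The mean share was 6.86% ± 2.36 in D3TA and 0.0149% ± 0.0148 in WT (SD, n = 2 each), a difference of 6.84 percentage points with an exact two-sided permutation p of 0.333, the smallest possible. In this composition of a dissociated organ, more members and fewer other cells cannot be told apart. Without mixed cells, which held at least 2 B cell, 2 T cell or 2 erythroid markers, the difference was 1.67 points, and members were then 1.84% and 1.51% of kept cells in D3TA against 0% and 0% in WT. The mixed call was not adjusted for depth. Each WT member, at 10937 to 23347 UMIs, had 2 B cell markers from 3 UMIs, and all but 1 also held T cell markers. Of the immature cells described below, 52.2% and 28.1% were mixed in D3TA replicates 1 and 2.

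Members were also a larger part of the gated neutrophils in both D3TA spleens. Cells of the same calprotectin and azurophil limits with at least 3% granule transcripts formed an immature gate, and those under 0.5% with 2 of the 5 late genes formed a mature gate. Of all cells in the 3 gates, members were 21.9% and 22.5% in D3TA replicates 1 and 2 against 0.192% and 1.37% in WT replicates 1 and 2. The means were 22.2% ± 0.384 in D3TA and 0.781% ± 0.833 in WT (SD, n = 2 each), 21.4 points apart, with the same exact p of 0.333. The immature gate held 2564 and 1465 cells in D3TA against 19 and 17 in WT, and the mature gate 1232 and 495 cells in D3TA against 500 and 127 in WT. The mature gate thus held 25.3% and 19.6% of the gated cells in D3TA, against 96.2% and 87.0% in WT. Both shares depended on the members counted: with calprotectin of at least 20% they came to a 4.19 point difference among gated cells and a 1.45 point difference among kept cells.

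The steps of the rule removed different cells in the 2 genotypes. The granule window alone took in 1608 and 1220 cells in D3TA and 41 and 3 in WT. The calprotectin and azurophil limits left 1520 and 1132 in D3TA and 35 and 2 in WT. Detection of 2 late genes then left 1066 and 568 in D3TA and 1 and 2 in WT, so that this last step removed 34 of 35 cells in WT replicate 1, the shallow library. Just outside it lay 309 and 347 D3TA cells and 10 and 0 WT cells with 1 late gene detected, and just inside it 327 and 253 D3TA cells and 0 and 0 WT cells with exactly 2.

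At the lower granule limit, 44 and 17 D3TA members lay between 0.5 and 0.6%, and 54 and 30 D3TA cells just outside, between 0.4 and 0.5%. At the upper limit, 57 and 25 D3TA members lay between 2.7 and 3%, against 52 and 22 D3TA cells between 3 and 3.3%. Neither edge coincided with a gap in the cells, and no WT cell lay within these 4 strips.

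**Figure D1:**
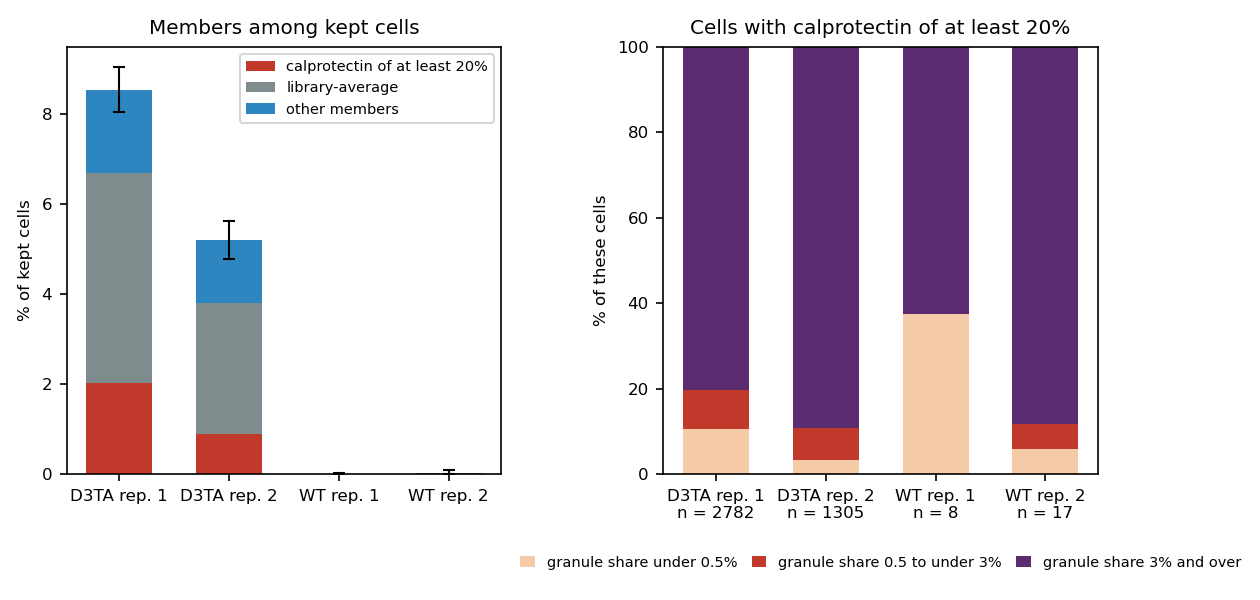
Left, members as a share of kept cells in each library (bars stacked by the 3 sets of members described in the text, whiskers: 95% exact binomial interval of the total); right, cells with calprotectin of at least 20% of UMIs by granule share (Camp, Ngp and Ltf), with the number of cells under each bar. The D3TA libraries reach 8.53% and 5.19% and the WT bars are barely visible; on the right the window of 0.5 to under 3% holds 9.06% and 7.51% in D3TA, and 0% and 5.88% of the few WT cells.

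The label was checked against the data. At least 3 of its 4 markers were detected in 78.0% and 68.1% of all D3TA members, but Mmp8, Retnlg and Csf3r were among the genes that chose the cells. Members fell into separate groups by calprotectin share and depth, and 3 sets were drawn after these values had been seen. Calprotectin-high members, with S100a8 and S100a9 at 20% of UMIs or more, numbered 252 and 98 in D3TA and 0 and 1 in WT. Library-average members had under 5000 UMIs and a calprotectin share of 0.7 to 1.3 times that of their whole library. They numbered 583 (54.7%) and 318 (56.0%) in D3TA. In WT there could be none, since 1.3 times the calprotectin share of a WT library lies below the 1% that the rule asks for. Other members numbered 231 and 152 in D3TA and 1 and 1 in WT.

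The RNA of each whole D3TA library, summed over all its barcodes, itself lay inside the windows of the rule. Granule transcripts made up 2.15% and 1.36% of all UMIs in D3TA and 0.0202% and 0.0438% in WT. Calprotectin made up 8.71% and 4.95% in D3TA and 0.158% and 0.174% in WT, and the azurophil trio 0.167% and 0.0995% in D3TA and 0.00290% and 0.000764% in WT. An even sample of all RNA in a D3TA library therefore met the 3 composition limits, and one of a WT library did not.

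Library-average members were close to such a sample for most genes. Their median depth was 2484 and 1985 UMIs, under 1 in 3 of the median of kept cells in their libraries, and their calprotectin share had a median of 7.98% and 4.31%. Its spread between these cells (SD 0.708 and 0.464 points) was close to that of counting alone (0.632 and 0.511 points), though the limits of the set also bound it. Of 1883 and 2075 genes at 100 or more CPM, 99.2% and 95.3% were within 2-fold of the whole library in library-average members. The share was 50.9% and 48.0% in calprotectin-high members and 79.8% and 89.7% in gated B cells. The median gene departed from the whole library by 0.249 and 0.368 log2 units in library-average members and 0.379 and 0.236 in gated B cells. By this measure gated B cells were the nearer set in D3TA replicate 2. Levels are counts-per-million (CPM) values, with the UMIs of genes outside the rule as the total, so that the large transcripts of the rule do not dilute the others.

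Markers of other lineages were at or above their library-wide levels in this set. B cell markers (6 of 6 detected in each library) summed to 1573 and 2662 CPM in library-average members of D3TA replicates 1 and 2, against 1560 and 2172 CPM over the whole libraries and 4465 and 4600.3 CPM in gated B cells. Erythroid markers summed to 4924 and 4002 CPM, against 4900 and 1986 CPM over the whole libraries. T cell markers summed to 1077 and 633 CPM, against 941 and 515 CPM over the whole libraries.

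At least 2 markers of a B, T or erythroid list were present in 96.7% and 94.0% of library-average members. Scrublet, a doublet caller, marked only 1.20% and 0.314% of them. Neutrophil lineage markers summed to 118230 and 65636 CPM, against 129590 and 71324 CPM over the whole libraries and 545600 and 484180 CPM in calprotectin-high members. Whether these barcodes held a neutrophil, a mixture or RNA free in the droplets was not tested, and they are given no cell type name here.

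The other members were mixed in depth. Their median was 6181 and 2204 UMIs in D3TA, with 1 in 20 above 43106 and 39994 UMIs, and Scrublet marked 42.9% and 26.3% of them. Their summed RNA was also close to the whole library, with 99.0% and 96.0% of genes within 2-fold.

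**Figure D2:**
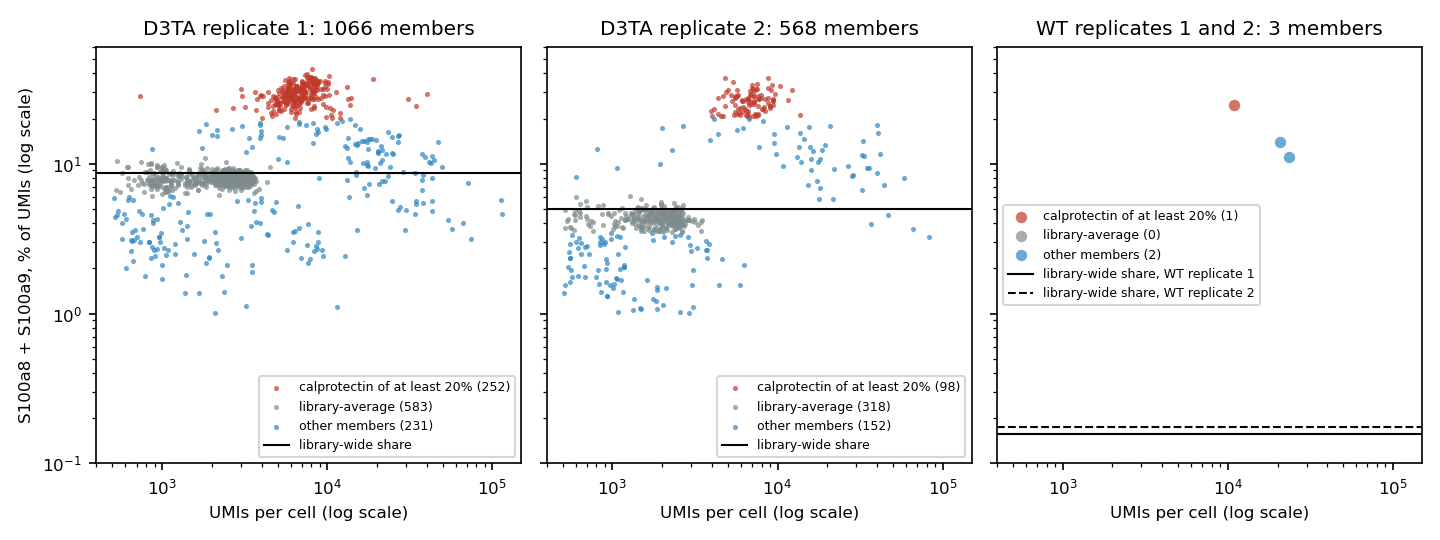
Each point is a member, placed by its UMIs (x axis, log scale) and its calprotectin share in % of UMIs (y axis, log scale), in D3TA replicate 1, D3TA replicate 2 and the WT replicates together; lines give the calprotectin share of the whole library. Library-average members (583 and 318) form a band along the D3TA lines at 8.71% and 4.95%, and calprotectin-high members (252 and 98) form a separate cloud above it around 6721 and 6867 UMIs.

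The markers of the label were most often detected in calprotectin-high members, which is a description, since 3 of the 4 helped to choose the cells. At least 3 of Mmp8, Lcn2, Retnlg and Csf3r were detected in 99.6% and 100% of them, against 69.3% and 59.4% of library-average members, 75.5% and 71.8% of the immature and 91.5% and 81.2% of the mature gate. In gated B cells, which should lack these genes, the share was 3.87% and 1.37% at a median of 13052 and 7803 UMIs. With each cell thinned to 500 UMIs, 81.7% and 81.6% of calprotectin-high members still held 3 of the 4, against 13.7% and 7.23% of library-average members and 0% of gated B cells. The same share was 18.7% and 18.8% in the immature gate and 39.9% and 30.9% in the mature gate. Lcn2, which the rule did not use, was then found in 90.9% and 95.9% of calprotectin-high members, against 80.1% and 66.0% of library-average members, 97.6% and 96.4% of the immature gate, 44.7% and 36.4% of the mature gate and 4.43% and 3.46% of gated B cells. Lcn2 alone thus did not set these members apart from the immature gate.

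Lymphoid and erythroid markers were below their library-wide levels in calprotectin-high members, and monocyte markers were above them. Macrophage markers were near that level in D3TA replicate 1 and above it in D3TA replicate 2. B cell markers summed to 109 and 154 CPM, T cell markers to 120.3 and 92.0 CPM and erythroid markers to 349 and 103 CPM, with Klf1, an erythroid regulator, at 0 in both libraries. Monocyte markers summed to 2164 and 1478 CPM, against 914 and 568 CPM over the whole libraries, with Ace at 0. They were also above the library-wide level in the immature gate, at 1544 and 1239 CPM, and in the mature gate, at 993.6 and 597.5 CPM. Macrophage markers summed to 279.9 and 265 CPM, against 286 and 134 CPM over the whole libraries, with C1qc and Spic at 0 in D3TA replicate 2. The part of these markers in the results was not tested. Mixed-cell markers were present in 38.9% and 24.5% of calprotectin-high members, and Scrublet marked 2.38% and 1.02%.

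**Figure D3:**
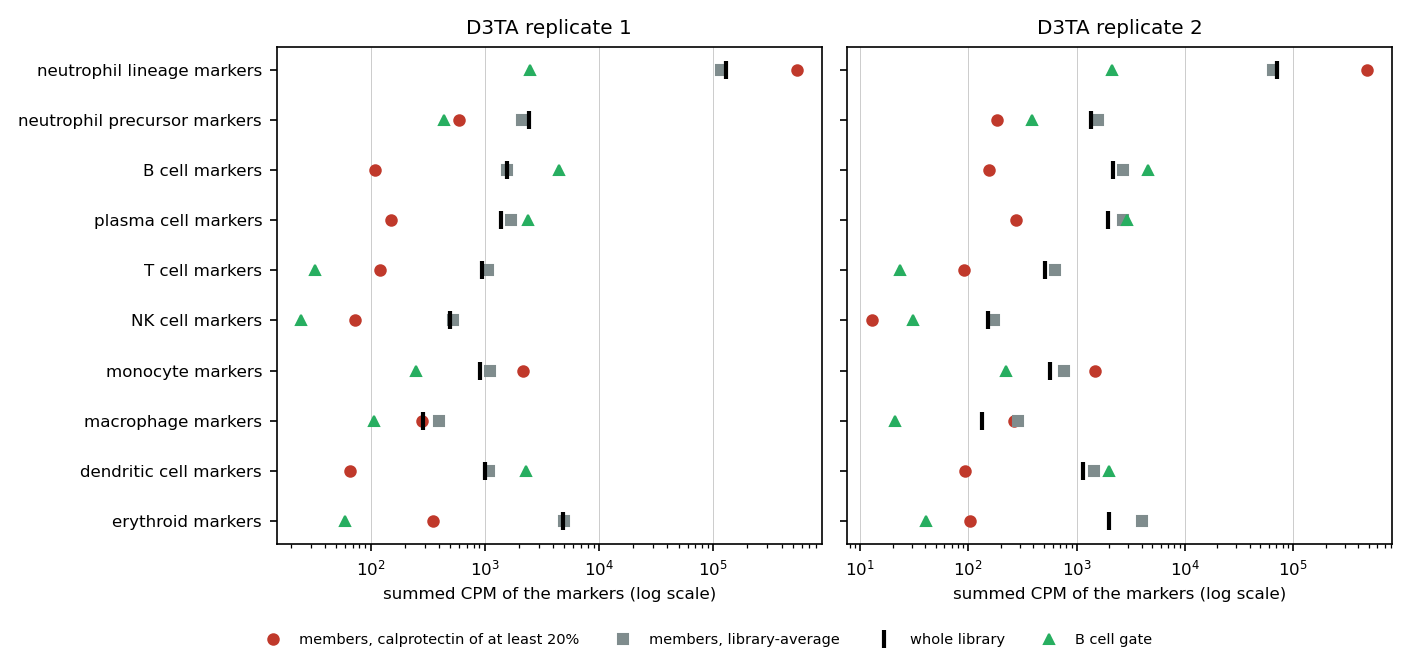
Summed level (CPM, log scale) of the markers of 10 cell types in calprotectin-high members, library-average members, the whole library and gated B cells, for D3TA replicates 1 and 2. Library-average members lie on or beside the whole-library mark for most lists, such as B cell markers at 1573 and 2662 CPM, while calprotectin-high members have the highest neutrophil sums and B cell markers at 109 and 154 CPM.

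Calprotectin-high members were 2.02% of kept cells in D3TA replicate 1 (95% exact interval 1.78 to 2.28) and 0.895% in D3TA replicate 2 (0.727 to 1.09). WT replicate 1 had 0 of 22619, which allows a share of up to 0.0133%, and WT replicate 2 had 1 cell, 0.0127%. The means were 1.46% ± 0.793 in D3TA and 0.00635% ± 0.00898 in WT (SD, n = 2 each), 1.45 points apart, with an exact p of 0.333.

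Among all cells with calprotectin of at least 20% and little azurophil message, however, the window held a small fraction in both genotypes. It held 252 of 2782 (9.06%) and 98 of 1305 (7.51%) such cells in D3TA, against 0 of 8 and 1 of 17 (5.88%) in WT. The upper exact limit for 0 of 8 is 36.9%, so at this number of WT cells no difference in this fraction was detectable. Cells with 3% and over made up 80.3% and 89.2% in D3TA and 62.5% and 88.2% in WT, and cells under 0.5% made up 10.6% and 3.3% in D3TA and 37.5% and 5.88% in WT.

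Only 3 WT cells were members, and each had all 5 late genes. The cell of WT replicate 1 had 23347 UMIs, with 11.1% calprotectin and 2.18% granule transcripts. It held 276 UMIs of Retnlg, 46 of Mmp8, 89 of Lcn2, 5 of Csf3r and 16 of Ccnd3. It also held 22 UMIs of T cell markers, including 4 of Cd3e, a chain of the T cell receptor complex.

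The first cell of WT replicate 2 had 10937 UMIs, 24.7% calprotectin and 2.22% granule transcripts, with 435 UMIs of Retnlg, 48 of Mmp8, 50 of Lcn2, 6 of Csf3r and 7 of Ccnd3, and no T cell marker. The second had 20631 UMIs, 14.0% calprotectin and 0.761% granule transcripts, with 151 UMIs of Retnlg, 50 of Mmp8, 122 of Lcn2, 6 of Csf3r, 13 of Ccnd3 and 21 of T cell markers. All 3 held 3 UMIs of B cell markers and 0 of Mki67, Il1b, Elane, Mpo and Prtn3. Of the WT members, 1 was thus free of T cell message.

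With 1 and 2 WT members, single genes were not tested between genotypes within the members, since the test was to be run only with 10 members in every library. The remaining results describe calprotectin-high members of D3TA replicate 1 and then replicate 2, beside the immature and the mature gates of the same libraries. Those gates hold cells of any calprotectin share from 1%, with a median of 28.0% and 24.4% in the immature and 14.1% and 7.12% in the mature gate. Members and gates were thus not matched for calprotectin, and a level above or below a gate does not separate granule share from calprotectin share.

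Some granule and receptor genes differed steadily across the window and others did not. Among cells with calprotectin of at least 20%, the members were split at granule shares of 0.5 to 1%, 1 to 2% and 2 to 3%, which held 70, 89 and 93 cells in D3TA replicate 1 and 24, 40 and 34 cells in D3TA replicate 2. Ltf, used by the rule, was at 669, 2861 and 6156 CPM over these bins in D3TA replicate 1 and at 1219.8, 4524 and 8682 CPM in D3TA replicate 2. Chil3, the gene of the chitinase-like protein Ym1, made by immature mouse neutrophils, was at 368, 1360.3 and 2218 CPM in D3TA replicate 1 and 709.9, 543 and 1014 CPM in D3TA replicate 2. Above the window, at 3 to 6%, Chil3 was at 7062 and 7983 CPM, so the largest step in Chil3 from the window outward lay at its upper edge.

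Lcn2, the gene of lipocalin 2, which binds bacterial siderophores, was not used by the rule and was at 9449.8, 10648 and 13949 CPM in D3TA replicate 1 and 7499, 11637 and 10201 CPM in D3TA replicate 2. It had 5062 and 5307 CPM below the window and 25826 and 20868 CPM at 9% and over. Lcn2 thus stayed high through the window, where Chil3 was already low.

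Mmp8, the collagenase gene, had 4689.7, 5184 and 4989 CPM in D3TA replicate 1 and 4949, 5871 and 6524 CPM in D3TA replicate 2, against 330.0 and 289 CPM at 9% and over and 2460.1 and 4331 CPM below 0.5%. Retnlg had 51373, 46551 and 33726 CPM in D3TA replicate 1 and 52792, 46956 and 41858 CPM in D3TA replicate 2, against 992 and 807 CPM at 9% and over. Both were high in every bin of members and low in the bins above 6%. Csf3r, the receptor of granulocyte colony-stimulating factor, was highest at the low end, at 1155, 824 and 618 CPM in D3TA replicate 1 and 1089.8, 915 and 575 CPM in D3TA replicate 2. Below 0.5%, Csf3r was at 2539.6 and 1945 CPM and Retnlg at 41658 and 42678 CPM. The lowest-granule cells thus had the most Csf3r in both libraries, but not the most Retnlg.

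Il1b, the gene of the cytokine interleukin 1β, was at 472, 117 and 113 CPM over the bins of members in D3TA replicate 1 and 309.9, 65.3 and 23.7 CPM in D3TA replicate 2. Below the window it was at 2313 and 933 CPM. Mki67, a marker of dividing cells, was at 20.1, 86.6 and 108 CPM in D3TA replicate 1 and at most 35.6 CPM in D3TA replicate 2, where the bins held 2, 3 and 6 of its UMIs, against 641 and 946 CPM at 3 to 6%. The step in Mki67 at 3% was larger than any step between the bins of members in either library. The smallest bin of members held 24 cells.

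**Figure D4:**
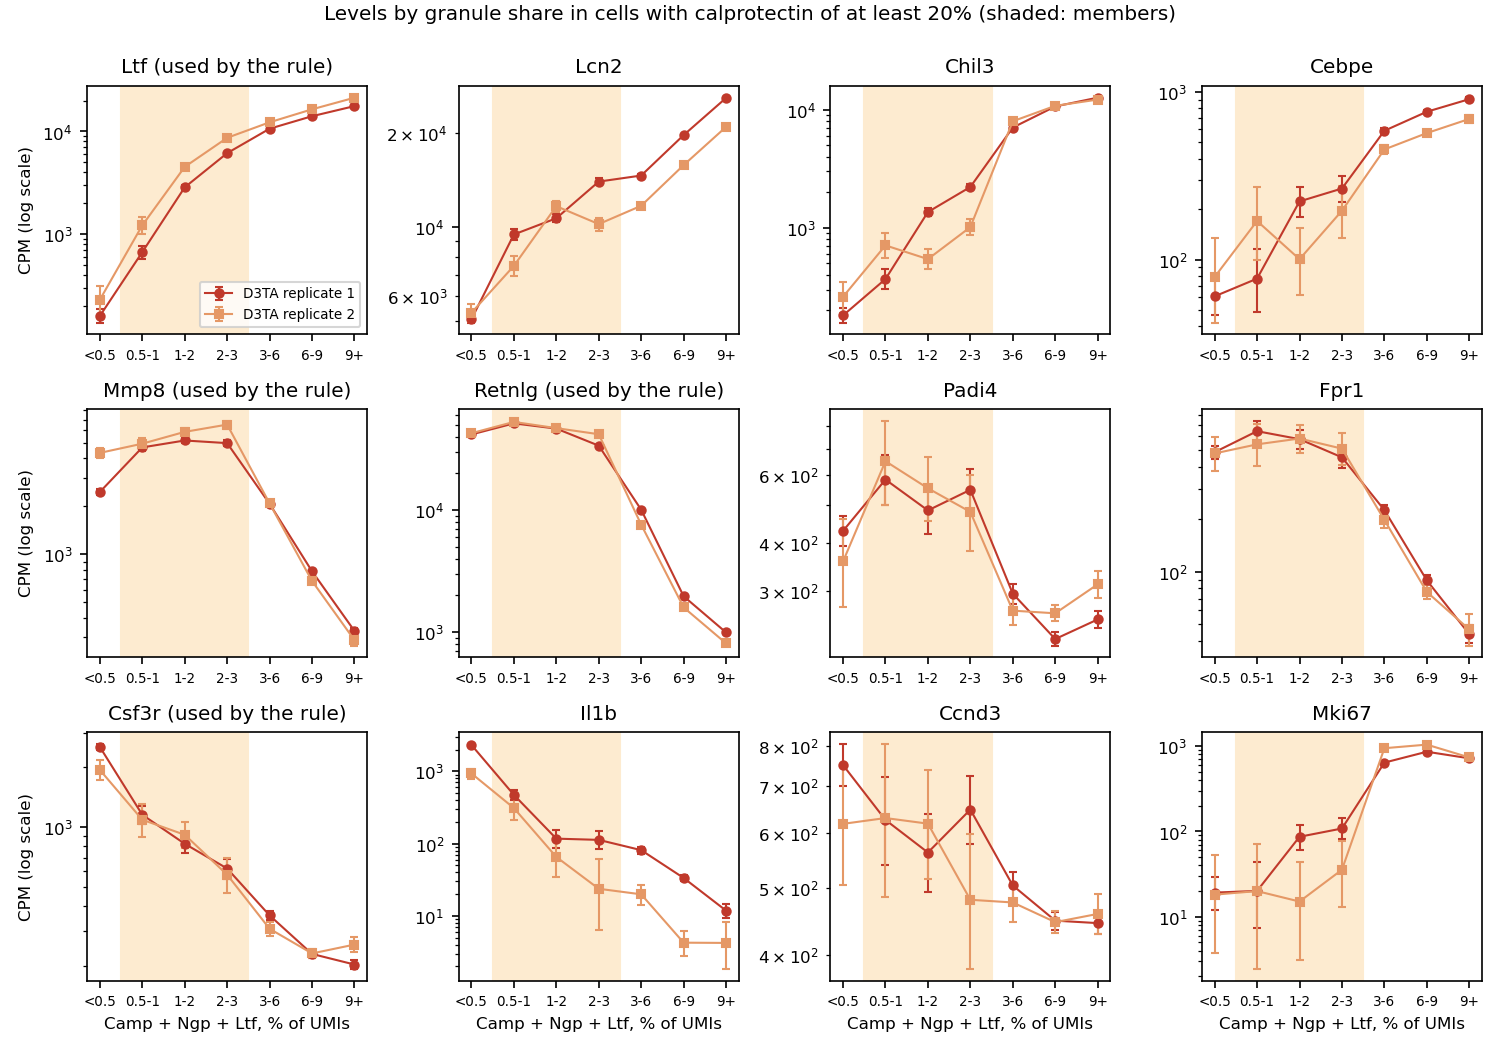
Level (CPM, log scale, with 95% Poisson intervals for counting error) of 12 genes in cells with calprotectin of at least 20%, by granule share, for D3TA replicates 1 and 2; the shaded bins hold the members. Chil3 and Mki67 are low inside the shading and high to its right, Mmp8 and Retnlg are high inside it, and Csf3r and Il1b are highest at its left, with Csf3r at 2539.6 and 1945 CPM.

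For 2466 genes, calprotectin-high members or a gate reached 100 CPM in both D3TA libraries. In both libraries, these members lay between the immature and mature gates for 732, above both for 710 (28.8%) and below both for 528 (21.4%). A gene under 100 CPM in both gates could enter only through the members' own level, which placed it above both. With levels set against all UMIs the order of the outer places turned round, with 310 genes above and 520 below. Of the 732 between, 364 (14.8%) were higher in the immature and 368 (14.9%) in the mature gate. The other 496 did not have the same place in both libraries. More than 2-fold departures were fewer, with 22 genes above and 88 below both gates. The median gene was 0.06 log2 units above the immature gate and 0.07 above the mature gate (levels with 5 CPM added). The gates are cut on the same cells, so these places carry no test, and the counts over lists below are to be read beside those of all genes.

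Specific granule genes mostly lay between the gates, and gelatinase granule genes mostly above both. Of 21 specific granule genes outside the rule, 11 lay between with immature cells higher, 7 above both and 0 below. The share above both was near the 28.8% of all genes. The median log2 difference of the list was -0.12 from the immature and 2.24 from the mature gate. Lcn2 was at 11647 and 10234 CPM in calprotectin-high members, against 19000 and 14619 CPM in the immature and 1866 and 1414 CPM in the mature gate. Lyz2, the lysozyme gene of myeloid cells, was at 9582 and 6769 CPM, against 14209 and 10428 CPM in the immature and 3746 and 2109.8 CPM in the mature gate. Chil3 stood nearer the mature end, at 1449.9 and 749 CPM against 9873 and 9939.5 CPM in the immature and 335 and 266 CPM in the mature gate.

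Other genes of the list were at or above the immature level. Wfdc21, which encodes a small whey acidic protein, was at 5377 and 6115 CPM, against 5545 and 6017 CPM in the immature and 1212 and 1201 CPM in the mature gate. Pglyrp1, which encodes a peptidoglycan recognition protein, was at 3886 and 3428 CPM, against 3412 and 2803 CPM in the immature and 1169.8 and 974 CPM in the mature gate. Ceacam10 was at 239.8 and 203 CPM, against 87.9 and 64.4 CPM in the immature and 52.0 and 33.7 CPM in the mature gate, and lay above both.

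Gelatinase granule genes were mostly higher in calprotectin-high members than in either gate, though neither gate was held to the members' calprotectin limit. Of 12 outside the rule, 10 lay above both gates, with a median log2 difference of 1.19 from the immature and 1.10 from the mature gate; without mixed cells 8 of 12 did, and with levels set against all UMIs 7 of 11. Itgam, the αM integrin chain of the complement receptor, was at 1412 and 1824 CPM, against 993 and 1228 CPM in the immature and 571 and 762 CPM in the mature gate. Plaur, the urokinase receptor gene, was at 1769.9 and 2250 CPM, against 586 and 615 CPM in the immature and 919 and 1194 CPM in the mature gate. Padi4, whose enzyme citrullinates histones when neutrophil chromatin is released, was at 534 and 548 CPM, against 227 and 248 CPM in the immature and 207 and 121 CPM in the mature gate. In D3TA replicate 1, cells that met the members' calprotectin limit but lay below the granule window had Padi4 at 429 CPM. The part of the calprotectin limit in the order of this list was not tested.

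Mmp25, a membrane-bound metalloprotease gene, followed the same order, at 452 and 507 CPM against 199 and 210.2 CPM in the immature and 96.1 and 91.4 CPM in the mature gate. The exceptions in the list were Anxa1 and Arg2. Anxa1, the gene of the anti-inflammatory protein annexin A1, was at 3566 and 3052 CPM, between 4717 and 3732 CPM in the immature and 755 and 704 CPM in the mature gate. Of the rule's own genes, Mmp8 was at 4984 and 5909 CPM, against 787 and 759 CPM in the immature and 876 and 809 CPM in the mature gate, and Mmp9, the gelatinase gene, at 3665 and 4136 CPM against 987 and 1023 CPM in the immature and 1349 and 1343 CPM in the mature gate. Both are described only, since their detection helped to choose the cells.

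Of 6 azurophil granule genes outside the rule, 1 (Hexa) lay above both gates and none below, and none lay above both without mixed cells, without doublets or with levels set against all UMIs. Srgn, the serglycin gene, whose proteoglycan packs granule contents in many blood cells, was at 2419 and 2498 CPM, against 315 and 278 CPM in the immature and 4501 and 5878 CPM in the mature gate. Serpinb1a, an inhibitor of neutrophil proteases, was at 559.9 and 274 CPM, against 983 and 698 CPM in the immature and 67.1 and 58.7 CPM in the mature gate. Nkg7, a granule gene of cytotoxic lymphocytes, was at 66.0 and 12.8 CPM, against 417 and 102 CPM over the whole libraries.

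Receptors of late neutrophils, which the rule used, differed in how near they came to the mature gate. Csf3r was at 826 and 829.8 CPM in calprotectin-high members, against 229 and 230.0 CPM in the immature and 2307 and 2926 CPM in the mature gate. Cxcr2, the chemokine receptor that draws neutrophils out of the marrow, was at 1152 and 1305 CPM, against 183 and 186 CPM in the immature and 1155 and 1341 CPM in the mature gate, so it was level with the mature gate where Csf3r was at under 1 in 2 of it. Retnlg, at 42709 and 46366 CPM, exceeded both 2786 and 2200.5 CPM in the immature and 14434 and 9040.2 CPM in the mature gate. Cells below the granule window that met the members' calprotectin limit had Retnlg near the members' level in both libraries. It was at 41658 CPM in such cells of D3TA replicate 1. The mature gate was not held to that limit, and the part of the limit in the excess of Retnlg was not tested.

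Of 23 mature neutrophil genes outside the rule, 11 lay between with mature cells higher, 7 above both gates and 0 below. Their medians were 1.76 log2 units above the immature and -0.18 relative to the mature gate. The share above both gates was near the 28.8% of all genes. Fpr1, a receptor for formylated bacterial peptides, was at 546 and 548 CPM, against 90.3 and 84.9 CPM in the immature and 202 and 158 CPM in the mature gate. Mxd1, a MYC antagonist of differentiating cells, was at 2078 and 2928 CPM, against 613 and 751 CPM in the immature and 1744 and 2163 CPM in the mature gate. Mxd1 lay between the gates once mixed cells were left out, as did Ifitm2, while Fpr1 remained above both.

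Ifitm2, an interferon-induced membrane protein gene, was at 1696 and 1198 CPM, against 818 and 475 CPM in the immature and 1546 and 1111 CPM in the mature gate. Msrb1, a methionine sulfoxide reductase gene, was at 2090 and 1619 CPM, against 827 and 673 CPM in the immature and 2043 and 1733 CPM in the mature gate. These levels were near those of the mature gate. Il1b was not, at 204 and 103 CPM against 35.1 and 11.7 CPM in the immature and 2563 and 3721 CPM in the mature gate.

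Of 14 egress and adhesion receptors, 4 lay above both gates, a share near the 28.8% of all genes, and 5 had no constant place. Cd9, a tetraspanin gene, was at 979 and 881 CPM, against 696 and 564 CPM in the immature and 524 and 539.8 CPM in the mature gate. Cd44, a hyaluronan receptor gene, was at 976 and 1138 CPM, against 500.4 and 615 CPM in the immature and 904 and 1364 CPM in the mature gate. Cxcr4, the receptor that retains neutrophils in the marrow, was at 247 and 280.2 CPM, against 175 and 236 CPM in the immature and 196 and 306 CPM in the mature gate, and did not keep its place between the libraries.

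Most transcription factors lay between the gates. Of 19, 8 lay between with mature cells higher and 2, Cebpe and Fli1, between with immature cells higher. Cebpe, the gene of C/EBPε, was at 203 and 149.7 CPM, against 716 and 528 CPM in the immature and 27.6 and 29.3 CPM in the mature gate. Cebpb, whose protein acts in later and emergency granulopoiesis, was at 464 and 368 CPM, against 207 and 142 CPM in the immature and 722 and 840.0 CPM in the mature gate. Spi1, the gene of PU.1, was at 771 and 699 CPM, against 549 and 434 CPM in the immature and 771 and 678 CPM in the mature gate, and thus above both gates by little.

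Fli1, an ETS factor gene, was at 359 and 489.8 CPM, against 527 and 692 CPM in the immature and 314 and 453 CPM in the mature gate. Runx1, a factor of definitive blood formation, was at 352 and 428 CPM, against 559 and 746 CPM in the immature and 327 and 472 CPM in the mature gate, with no constant place. Without mixed cells, 13 of the 19 factors lay between with mature cells higher, Spi1 among them.

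Genes of the oxidative burst and of sugar use differed in place. Of 9 NADPH oxidase genes, 4 lay between with immature cells higher and 3 above both gates, the latter a share near the 28.8% of all genes. Cybb, the catalytic subunit gp91phox, was at 1499 and 2002 CPM, against 2894 and 3441 CPM in the immature and 292 and 333 CPM in the mature gate. Cyba, its partner p22phox, was at 1858 and 1375 CPM, against 2684 and 1898 CPM in the immature and 922 and 639 CPM in the mature gate. Rac2, the GTPase that activates the complex, was at 1547 and 1226 CPM, against 1348 and 1105 CPM in the immature and 937 and 674 CPM in the mature gate, and lay above both.

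Of 17 glycolysis genes, 11 lay above both gates, with medians of 0.27 log2 units above the immature and 1.06 above the mature gate; without mixed cells 8 of 18 did. Gapdh was at 1799 and 1330.3 CPM, against 1490.1 and 1061 CPM in the immature and 885 and 470.4 CPM in the mature gate. Slc2a3, a glucose transporter gene, was at 1134 and 1189 CPM, against 379.8 and 394 CPM in the immature and 800.3 and 808 CPM in the mature gate. Gpi1, which isomerizes glucose phosphate, was at 788 and 746 CPM, against 904 and 905 CPM in the immature and 342 and 319 CPM in the mature gate, and lay between.

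Of the relatives of the calprotectin genes that the rule did not use, S100a6 and S100a11 were high. Neither gate was held to the members' calprotectin limit, and the part of that limit in these levels was not tested. S100a6 was at 10655 and 9477 CPM, against 2597 and 1635 CPM in the immature and 5855 and 4043 CPM in the mature gate. S100a11 was at 6743 and 5005 CPM, against 2432 and 1842 CPM in the immature and 4147 and 2954 CPM in the mature gate, and both genes lay above both gates. Stfa2l1, a stefin gene, lay between, at 224 and 250.2 CPM against 17.1 and 16.6 CPM in the immature and 646 and 504 CPM in the mature gate.

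Cytokine genes had no common place. Of 8, 4 lay between with mature cells higher and 3 above both gates, and none of those 3 did so without mixed cells. Hdc, which makes histamine, was at 2355 and 3009 CPM, against 469 and 575 CPM in the immature and 1944 and 2435 CPM in the mature gate. Ccl6, a chemokine gene, was at 511 and 218 CPM, against 27.1 and 12.1 CPM in the immature and 1446 and 1304 CPM in the mature gate. Osm, the oncostatin M gene, was at 259.9 and 406 CPM, against 36.3 and 52.7 CPM in the immature and 208 and 246 CPM in the mature gate.

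Interferon response genes were higher in D3TA replicate 1 than in D3TA replicate 2 in all 3 sets. Of 7 at 100 CPM, 3 lay above both gates, 0 below, and 3 had no constant place, while 2 of 9 lay above both without mixed cells and 1 of 6 with levels set against all UMIs. The 29 measured genes summed to 5622 and 1969.8 CPM in calprotectin-high members, 1737 and 630.0 CPM in the immature and 5258 and 2190.5 CPM in the mature gate. Ifi27l2a was at 1597 and 239.5 CPM, against 366 and 64.4 CPM in the immature and 1538 and 388 CPM in the mature gate. Slfn1, an interferon-induced schlafen gene, was at 628 and 404 CPM, against 168 and 85.3 CPM in the immature and 460.1 and 315 CPM in the mature gate. Both genes had their lowest levels in the immature gate of each library.

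Class I antigen presentation genes were also higher in D3TA replicate 1. B2m, the shared light chain, was at 2377 and 1114 CPM in calprotectin-high members, against 1779 and 990.0 CPM in the immature and 2104 and 1425 CPM in the mature gate. H2-D1 was at 2841 and 1294 CPM, against 1634 and 559 CPM in the immature and 2637 and 1303 CPM in the mature gate, and H2-K1 at 1716 and 396 CPM, against 1298 and 369 CPM in the immature and 1638 and 675 CPM in the mature gate. The class II genes H2-Aa, H2-Ab1, H2-Eb1 and Cd74 lay below both gates, as did Psmb8, but without mixed cells only H2-Ab1 of these did. Cd74, the invariant chain of antigen-presenting cells, was at 137 and 169 CPM, against 466 and 391 CPM in the immature and 1567 and 1571 CPM in the mature gate, and at 6770.3 and 6151 CPM in gated B cells. B cell markers summed to 109 and 154 CPM in calprotectin-high members, 277 and 254 CPM in the immature and 798 and 1017 CPM in the mature gate, and their part in this order was not tested.

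Of 18 early response and heat shock genes, 9 lay between with mature cells higher, a place held by 14.9% of all genes. The 4 below both gates were a share close to that of all genes. Zfp36, whose protein destabilizes cytokine messages, was at 910.0 and 1506 CPM, against 261 and 376 CPM in the immature and 1224 and 2080 CPM in the mature gate. The chaperone Hsp90ab1 was at 369 and 323 CPM, against 449 and 337 CPM in the immature and 635 and 367 CPM in the mature gate, and Hspa8 at 384 and 261 CPM, against 515 and 398 CPM in the immature and 517 and 337 CPM in the mature gate. Both chaperones were below both gates, and neither was so without mixed cells.

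Of 10 genes of growth factor receptors and JAK-STAT signalling, 9 lay between with mature cells higher and 1, Csf2ra, above both gates. Jak1, a kinase of cytokine receptors, was at 424 and 509 CPM, against 256 and 312 CPM in the immature and 507 and 626 CPM in the mature gate. Stat5b, a target of such kinases, was at 208 and 244 CPM, against 131 and 164 CPM in the immature and 228 and 313 CPM in the mature gate. Mcl1, the survival protein neutrophils depend on, was at 821 and 725 CPM, against 302 and 259 CPM in the immature and 1139 and 1189.6 CPM in the mature gate. These 3 had 1 order in both libraries. Bcl2, a survival gene of lymphocytes, was at 25.9 and 15.0 CPM, against 64.6 and 58.5 CPM in the immature and 154 and 208 CPM in the mature gate, and Xiap, an inhibitor of caspases, at 143 and 197 CPM, against 134 and 187 CPM in the immature and 115 and 172 CPM in the mature gate.

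**Figure D5:**
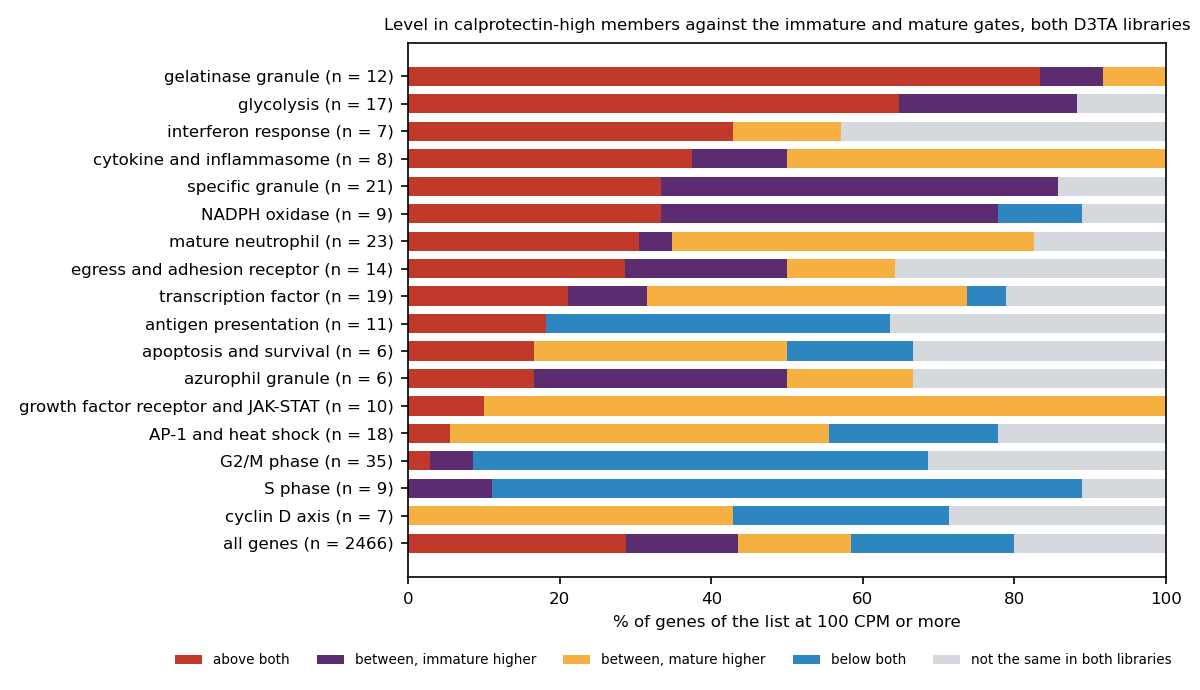
For 17 gene lists and all genes, the share of genes (% of those at 100 CPM or more, n in the row label) whose level in calprotectin-high members lay above both, between or below both of the immature and mature gates in both D3TA libraries. Gelatinase granule genes have the longest bar above both gates (10 of 12), S phase genes the longest below both (7 of 9), and all genes are split 710 above and 528 below of 2466.

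Most cell cycle genes were low in calprotectin-high members. The summed G2/M level was above that of the mature gate, by less than Hmgb2 alone was. Of 35 G2/M genes, 21 lay below both gates and 1 above, with a median log2 difference of -3.25 from the immature and -0.35 from the mature gate. Of 9 S phase genes, 7 lay below both gates, against 2 of 9 without mixed cells. Summed over both lists, levels were 5779 and 4196 CPM in calprotectin-high members, against 18649 and 20138 CPM in the immature and 5843 and 3597 CPM in the mature gate. The G2/M list alone summed to 5069 and 3798 CPM, above 4542.5 and 3044.7 CPM in the mature gate. This excess was smaller in both libraries than that of Hmgb2, whose levels are given below, so it does not describe the list as a whole. The S phase list summed to 709 and 398 CPM, below 1300 and 552 CPM in the mature gate. After thinning to 500 UMIs, Mki67 or Top2a, a topoisomerase of dividing cells, was found in 1.19% and 1.02% of calprotectin-high members. These were 3 and 1 cells, with upper exact limits of 3.44% and 5.55%. The share was 24.0% and 27.7% in the immature gate, 4.22% and 3.64% in the mature gate and 22.1% and 19.5% in library-average members, and before thinning it was 15.1% and 22.4% in calprotectin-high members. Gated B cells held Mki67 or Top2a in 5.05% and 2.65% after thinning and in 36.0% and 22.4% before it.

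Mki67 was at 78.6 and 23.5 CPM in calprotectin-high members, against 739 and 977 CPM in the immature and 152 and 38.1 CPM in the mature gate. Pcna, the sliding clamp of DNA polymerase, was at 39.3 and 29.9 CPM, against 219 and 293 CPM in the immature and 107 and 66.5 CPM in the mature gate. Smc4, a condensin subunit, was at 139 and 98.4 CPM, against 585 and 716 CPM in the immature and 173 and 161 CPM in the mature gate. These 3 genes were below both gates in both libraries. Pola1 was at 18.4 and 4.28 CPM, against 95.1 and 121 CPM in the immature and 60.9 and 20.05 CPM in the mature gate, and Slbp, which binds histone messages, at 71.9 and 79.1 CPM, against 168 and 193 CPM in the immature and 84.9 and 68.0 CPM in the mature gate. Hmgb2, a chromatin protein gene, stayed between at 2540.4 and 2139 CPM, against 5486 and 5868 CPM in the immature and 1754 and 1379 CPM in the mature gate. The nuclear envelope gene Lbr was the G2/M list member above both, at 558 and 674 CPM against 459.7 and 593 CPM in the immature and 359 and 376 CPM in the mature gate.

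Over all members, S and G2/M genes summed to 8280 and 8092 CPM in D3TA, against 2013 CPM in the 1 WT replicate 1 member and 2864 CPM in the 2 WT replicate 2 members. The difference of means was 5747 CPM with an exact permutation p of 0.333. Most of it moved with which cells were counted: for calprotectin of at least 20% the difference was 1508 CPM, with WT resting on 1 cell. Library-average members, which the definition of the set allows in D3TA only, had 10033 and 8728 CPM in D3TA.

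Ccnd3, the edited gene, was the D-type cyclin of these cells. It was at 612 and 571 CPM in calprotectin-high members, against 450.0 and 452 CPM in the immature and 714 and 798 CPM in the mature gate. The mature gate of WT replicates 1 and 2 had 813 and 1131 CPM and their immature gate 439 and 416 CPM. Ccnd1 was at 0.836 and 0 CPM and Ccnd2 at 8.36 and 15.0 CPM in calprotectin-high members. Their partner kinases were low too, with Cdk4 at 6.69 and 4.28 CPM and Cdk6 at 23.4 and 27.8 CPM, against 24.4 and 16.4 CPM and 59.2 and 77.7 CPM in the immature gate. The counts do not show which allele a Ccnd3 molecule came from.

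Of 7 genes of the cyclin D axis at 100 CPM, 3 lay between with mature cells higher, 2 lay below both gates and none above. Ambra1, the adaptor of a ubiquitin ligase that degrades D-type cyclins, was at 160.4 and 201 CPM, against 147 and 186 CPM in the immature and 184 and 241 CPM in the mature gate. Gsk3b, a kinase that phosphorylates cyclin D1 on the matching threonine, was at 188 and 261 CPM, against 212 and 279 CPM in the immature and 213 and 264 CPM in the mature gate. Rb1, the retinoblastoma gene that these kinases inactivate, was at 106 and 135 CPM, against 179.6 and 233 CPM in the immature and 153 and 137 CPM in the mature gate. Rb1 lay between the gates without mixed cells.

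Of the genes ranked, those that lay furthest above both gates in calprotectin-high members were Thbs1, Gpr27, Upp1, Rin2, Nt5e, Fpr1, Ceacam10, Ifrd1, Lrrk2 and Acvrl1. Gpr27, Upp1, Rin2, Nt5e, Ceacam10 and Acvrl1 were under 100 CPM in both gates of both libraries, and Thbs1 was in D3TA replicate 1. There they could enter only through the members' own level, which placed them above both gates. Fpr1, Ifrd1 and Lrrk2 reached 100 CPM in the mature gate of both libraries. Thbs1, the thrombospondin 1 gene, was at 159.6 and 667 CPM, against 27.8 and 94.0 CPM in the immature and 16.3 and 117 CPM in the mature gate. Its level was much higher in D3TA replicate 2, in all 3 sets. Gpr27, an orphan receptor gene, was at 141 and 152 CPM, against 25.5 and 28.4 CPM in the immature and 15.5 and 12.2 CPM in the mature gate, with both libraries alike. Upp1, a uridine phosphorylase gene, was at 196 and 126 CPM, against 34.1 and 18.1 CPM in the immature and 66.9 and 24.0 CPM in the mature gate. Nt5e, the ectonucleotidase CD73, was at 129 and 171 CPM, against 45.1 and 47.7 CPM in the immature and 33.0 and 31.3 CPM in the mature gate, and Lrrk2, a leucine-rich repeat kinase, at 791 and 1059 CPM, against 322 and 419 CPM in the immature and 242 and 357 CPM in the mature gate.

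Of the genes ranked, those furthest below both gates included Hspa5, Mtdh, Supt3, Taf15, Stag1, Dennd1a, Calr and Kif23. None of these was among the 88 genes more than 2-fold below both gates. The smallest difference of Hspa5 from a gate was 0.995 log2 units. Hspa5, the chaperone BiP of the endoplasmic reticulum, was at 93.6 and 96.2 CPM, against 192 and 199.6 CPM in the immature and 230.3 and 207 CPM in the mature gate. Calr, the chaperone calreticulin, was at 66.0 and 62.0 CPM, against 118 and 119 CPM in the immature and 152 and 122 CPM in the mature gate. Kif23, a motor of cell separation at division, was at 55.2 and 53.5 CPM, against 153 and 195 CPM in the immature and 96.4 and 133 CPM in the mature gate. In gated B cells Hspa5 was at 281 and 298 CPM and Calr at 298 and 285 CPM, and the part of B cell message in the gates was not tested.

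Of the genes ranked, the steepest between the gates were, on the immature side, Chil3, Cpa6, Inhba, Orm1, Olr1, Aff2, Prom1, Cebpe, Lbp and Erg. Inhba, an activin subunit gene, was at 56.0 and 59.9 CPM, against 279 and 323 CPM in the immature and 6.21 and 6.85 CPM in the mature gate. Erg, an ETS factor gene, was at 77.7 and 72.7 CPM, against 259 and 322 CPM in the immature and 13.4 and 10.8 CPM in the mature gate. On the mature side they were Il1b, Wfdc17, Ccl6, Ifitm1, Pla2g7, Sirpb1b, Clec4d, Prr5l, Acod1 and Jaml. Acod1, which makes itaconate, was at 119.5 and 68.4 CPM, against 8.25 and 2.23 CPM in the immature and 338 and 243 CPM in the mature gate, and Clec4d, a C-type lectin receptor gene, at 422 and 489.8 CPM, against 16.8 and 13.1 CPM in the immature and 594 and 806 CPM in the mature gate. Calprotectin-high members were close to the mature gate in Clec4d and far from it in Il1b.

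Over all members, the genes above both gates included genes of B and T cells. Of 2422 genes, 735 (30.3%) lay between the gates with immature cells higher, 485 (20%) between with mature cells higher, 360 (14.9%) above both and 418 (17.3%) below both. Of the genes ranked, the furthest above were Hspd1, Npm1, Txndc5, Hspe1, Blk, Pdia6, Ncl, Gimap4, Ly6a and Hsp90ab1. Blk, a kinase of B cells, was at 164 and 154 CPM in members, against 40.0 and 22.6 CPM in the immature, 91.3 and 85.6 CPM in the mature and 629 and 445 CPM in the B cell gate. Npm1, the nucleolar protein nucleophosmin, was at 747 and 546 CPM in members, against 216 and 160.0 CPM in the immature, 367 and 256 CPM in the mature and 923 and 691 CPM in the B cell gate. Members as a whole thus had more of these genes than either neutrophil gate.

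Of the genes ranked over all members, the furthest below both gates were Cebpd, Lrmda, Igf1r, Siglece, Gsdme, Nfe2l2, Kif23, Cdk2ap2, Ogfrl1 and Atrnl1. Cebpd, a C/EBP factor gene of myeloid cells, was at 247 and 169 CPM in all members and 573 and 438 CPM in calprotectin-high members, against 453 and 356 CPM in the immature and 439 and 381 CPM in the mature gate. The place of Cebpd thus depended on which members were counted.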

How the data were processed

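Spleen cells of 2 D3TA and 2 WT mice were counted as UMIs per gene and barcode; the authors deposited 1 raw count matrix of 32285 genes per mouse, which per the file headers comes from Cell Ranger 7.0.1 and per the submitters' processing notes uses mm10. For the annotation release and intronic reads, the setting is not given in the sources used here. Groups came from the labels. Members, gates and levels were computed in Python 3.11.15 with numpy 2.4.6, scipy 1.17.1 and pandas 2.3.3. The 64410 barcodes (9888 to 25829 per library) held 81416981 to 143811696 UMIs per library. Doublets were marked, not removed, with the Scrublet method in scanpy 1.11.5 at an expected rate of 6%, which marked 5.66% and 3.44% of D3TA and 1.47% and 2.50% of WT cells. WT replicate 1 took its score limit from the average over the other libraries.

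The members, the 18 gene lists (405 distinct genes, 401 measured) and the tests were chosen with earlier results of these data known, and the 3 sets of members and the scale of levels after the members' values had been seen. Levels are CPM over the UMIs of genes outside the rule, and genes of the rule have their own UMIs over that same total. Positions between gates used 5 CPM added before logarithms and genes of at least 100 CPM in the members compared or in a gate, in both D3TA libraries. Shares have exact binomial (Clopper-Pearson) intervals at 95%, a count of 0 allows up to 3 counts, and UMI intervals are Poisson; all cover counting error only. Group differences were tested by exact two-sided permutation of the 4 libraries. The planned count model on summed UMIs required 10 members in each library, and its genotype fit, its stage by genotype fit, their simulated-data check and their alternatives were not run because WT held 1 and 2 members. Named genes were the rule's genes and markers, the 3 highest genes of each list outside the rule by mean CPM in members, the D-type cyclins and their kinases, and the 10 genes furthest above or below both gates over all members, extended after the values were seen to calprotectin-high and library-average members and to genes between the gates, leaving out receptor segments, hemoglobin, mitochondrial, ribosomal and unnamed genes and those over 5 times higher in gated B, T or erythroid cells. Genes named outside this rule (Pglyrp1, Padi4, Mmp25, Cxcr4, Cebpb, Spi1, Cd74, Mki67, Top2a and Rb1 among them) were chosen after their values were seen. Promoter windows are RefSeq's on GRCm38.p6. A few genes that the naming rule picked are not reported here.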

Additional observations from a re-analysis of the deposited data

How the results depend on the processing

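The 3 differences between D3TA and WT kept their direction under all alternatives that gave a value, but none could pass a threshold with 2 libraries per group. The difference in share of kept cells, 6.84 points, was 3.48 points with cells thinned to 500 UMIs, 1.67 without mixed cells, 3.06 without library-average members, and 1.64, 1.45 and 1.08 at calprotectin of at least 15%, 20% and 25%. That in share of gated neutrophils, 21.4 points, was 12.7, 10.7, 9.13, 4.80, 4.19 and 3.23 points under the same alternatives. The cell cycle difference, 5747 CPM, was 2478 CPM at 15% and 1508 CPM at 20%, and had no WT value without mixed cells or at 25%. Leaving out each library gave 5.17 to 8.51 points, 20.8 to 22.0 points and 5322 to 6173 CPM.

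With the replicate number as a block the values were the same, 6.84 and 21.4 points and 5747 CPM, with an exact p of 0.5, the smallest that 2 pairs allow. Whether the numbers pair the mice could not be checked from 1 and 2 WT members.

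Of the counts of genes by position over all members, 418 below both gates became 134 without mixed cells and 171 with levels set against all UMIs, and 534 to 683 in a single D3TA library. For calprotectin-high members, 528 below both gates became 328 at calprotectin of at least 15% and 316 without mixed cells, and 710 above both became 471 with thinned cells and 310 with levels set against all UMIs, a scale on which 520 lay below both, the larger side. Single D3TA libraries gave 966 to 1127 between, 881 to 923 above and 722 to 841 below, since a gene then needs its place in 1 library only. The causes of the other moves were not tested. The planned edgeR and DESeq2 fits were not run, so their alternatives have no values. The 3 WT members limit every statement on WT, and WT replicate 1 is the shallowest library.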
